A study of Mus musculus with 9 samples.

Results

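Eph receptors and their ephrin ligands were followed in mouse prostate basal cells grown as organoids, using 10 genes chosen by symbol: the receptor genes Epha1, Epha2, Epha4, Ephb2, Ephb3, Ephb4 and Ephb6 and the ligand genes Efna1, Efnb1 and Efnb2. They are 10 of the 22 genes of the mouse Eph and ephrin family and of 49585 genes measured, and all 10 passed the filter on low values that left 15867 genes for testing. They were matched to Ensembl identifiers by symbol in the GENCODE M21 annotation of GRCm38. The list was chosen with earlier results of these data known, so its counts and medians beside those of all genes are only a description. Basal cells had been flow-sorted from C57BL/6J prostates and cultured for 5 days, and RNA was sequenced from 9 libraries in 3 groups of 3. RD7 organoids received R-spondin1 at 500 ng/ml and dihydrotestosterone (DHT) at 100 nM. R organoids received the same R-spondin1 without DHT. BM organoids received neither. All groups shared a base medium with EGF at 50 ng/ml, Noggin at 100 ng/ml (a BMP antagonist), the TGF-β type I receptor inhibitor A83-01 at 200 nM, the ROCK inhibitor Y-27632 at 10 μM, and N-acetylcysteine at 1.25 mM. ROCK is an effector of Eph signaling, so every group was measured with that step under an inhibitor. No group had DHT without R-spondin1, and nothing in the labels ties the replicates to separate animals or cultures. The p-values then measure only the spread between these libraries, which may be technical.

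Eph receptors are receptor tyrosine kinases that are activated by ephrins on neighbouring cells, and ephrins signal back into the cell that carries them. A-type ephrins are held in the membrane by a lipid anchor and mostly bind EphA receptors, whereas B-type ephrins span the membrane and mostly bind EphB receptors, with EphA4 binding both types. In epithelia the system acts on cell sorting, boundaries and adhesion, and in the intestinal crypt of the mouse Ephb2 and Ephb3 are known targets of Wnt signaling, the pathway that R-spondin1 strengthens.

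Among the 10 genes, Epha2, Epha4 and Ephb2 were the receptors called lower when DHT was added to R-spondin1. The 250 bases upstream of their transcription starts are given here because DHT acts through a receptor that binds DNA. The sequences are from RefSeq (GRCm38.p6), 5′ to 3′ on the strand of the gene. The windows are chr4:141300971-141301220 on the plus strand for Epha2, chr1:77515089-77515338 on the minus strand for Epha4 and chr4:136836013-136836262 on the minus strand for Ephb2. Capitals mark a TCF/LEF motif, the letters through which Wnt signaling acts on DNA.
Epha2: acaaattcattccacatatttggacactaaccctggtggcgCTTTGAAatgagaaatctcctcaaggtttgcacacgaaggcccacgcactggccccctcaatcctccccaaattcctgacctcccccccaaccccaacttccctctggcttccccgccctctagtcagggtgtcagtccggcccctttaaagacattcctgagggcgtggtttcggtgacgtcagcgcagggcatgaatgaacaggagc
Epha4: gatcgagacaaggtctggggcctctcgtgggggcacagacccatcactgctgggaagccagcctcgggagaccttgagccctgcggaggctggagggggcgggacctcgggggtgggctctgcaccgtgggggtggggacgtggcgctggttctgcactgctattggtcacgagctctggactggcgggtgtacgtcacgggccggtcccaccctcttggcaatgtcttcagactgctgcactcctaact
Ephb2: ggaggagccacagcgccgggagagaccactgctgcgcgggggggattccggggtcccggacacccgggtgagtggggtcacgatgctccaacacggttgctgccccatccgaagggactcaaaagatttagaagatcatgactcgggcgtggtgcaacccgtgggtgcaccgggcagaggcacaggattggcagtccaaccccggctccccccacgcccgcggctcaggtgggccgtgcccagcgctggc
All 10 genes had at least 1 such window, 11 in all because Efna1 has 2 starts. The hexamer AGAACA, a core element of androgen and glucocorticoid receptor sites, was searched on both strands. It was in 0 of the 11 windows and in 16.1% of 32851 windows of all genes. The TCF/LEF letters searched, also on both strands, were CTTTG followed by AA, AT, TA or TT. They were in 1 of the 11 windows, that of Epha2, where CTTTGAA began 209 bases before the start, and in 14.8% of all windows. No match says only that these letters are absent from these 250 bases.

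Libraries held between 6505859 (BM 1) and 24141017 (BM 2) counted reads, and the 10 genes had between 72 reads (Ephb2 in RD7 2) and 5143 reads (Efnb1 in R 2) each. Values are FPKM, reads scaled to gene length and library total, so that levels can be compared between genes. Means are given ± SD with n = 3 libraries in each group, and log2 fold changes ± SE come from limma on log2(FPKM + 0.5), with Benjamini-Hochberg adjustment over all genes tested. Calls were made at an adjusted p below 0.05. The Wnt feedback gene Axin2 averaged 3.97 ± 0.595 FPKM in RD7, 4.28 ± 1.17 in R and 0.351 ± 0.0381 in BM, and the androgen-response gene Fkbp5 averaged 109 ± 16.3, 4.29 ± 0.737 and 5.84 ± 1.22 FPKM in the same order of groups. All 6 basal markers were above 1 FPKM, with summed levels of 8314 to 9415 FPKM in RD7, 9691 to 10298 in R and 7042 to 7918 in BM. The sum is set by Krt5, Krt14 and Krt15. The basal markers Krt5, Itga6 and Trp63 were lower in every RD7 library than in every R library. Their means were 2397, 15.5 and 26.5 FPKM in RD7 against 3484, 36.1 and 44.3 in R. Krt14, Krt15 and Dst overlapped between RD7 and R. Luminal markers summed to 1807 to 2206, 1703 to 2001 and 2171 to 2713 FPKM, and single markers went different ways. Hoxb13 and Spdef had their highest means in RD7 (246 and 16.7 FPKM, against 43.0 and 1.95 in R), while Krt18 and Cd24a had their lowest means in RD7 (653 and 149 FPKM, against 934 and 233 in R). In bulk RNA, fewer cells of a type and less RNA per cell cannot be told apart, and the part of these shifts in the results below was not tested.

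**Figure D1:**
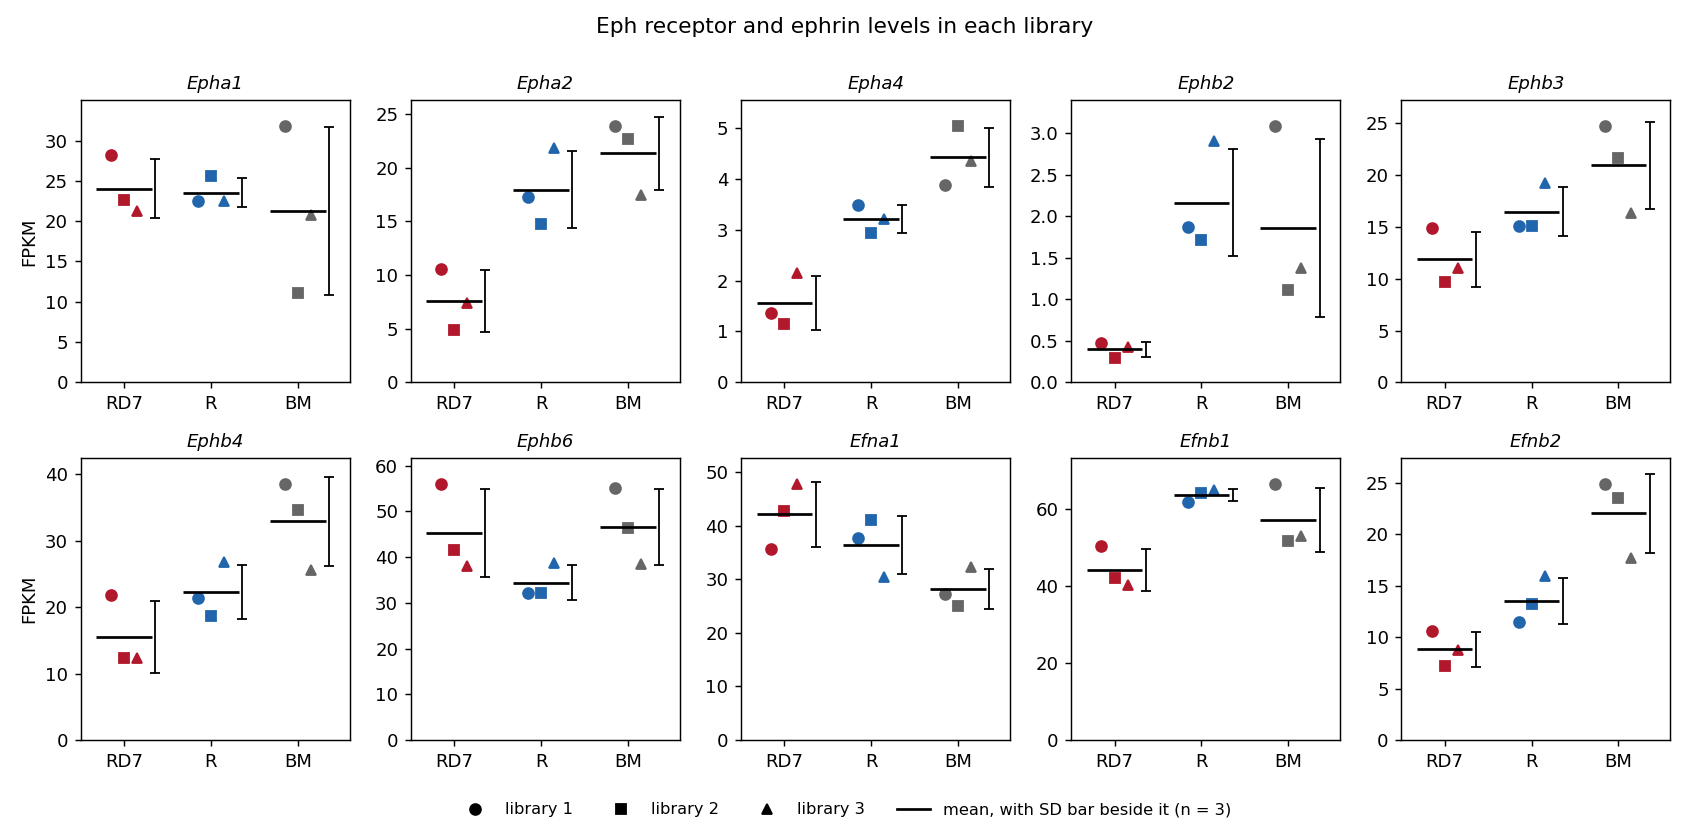
FPKM of the 10 Eph and ephrin genes (1 panel each, axis from 0) in RD7, R and BM; symbols are single libraries, the line is the group mean and the bar beside it the SD (n = 3). In RD7, Epha2, Epha4, Ephb2, Ephb3, Efnb1 and Efnb2 lie below every R library, while Epha1 overlaps across all groups.

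Levels per length differed widely among the 10 genes. In BM, Efnb1 stood highest at 57.1 ± 8.25 FPKM, before Ephb6 (46.6 ± 8.34), Ephb4 (33.0 ± 6.70) and Efna1 (28.2 ± 3.73), and the ranges of each of these neighbours in the order overlapped. Efnb2 (22.0 ± 3.83), Epha2 (21.3 ± 3.42), Epha1 (21.2 ± 10.4) and Ephb3 (20.9 ± 4.22) followed at levels that overlapped too. Epha4 (4.42 ± 0.584) and Ephb2 (1.86 ± 1.07) were lower than all of these in every BM library. In RD7 the order was Ephb6 (45.2 ± 9.57), Efnb1 (44.2 ± 5.43) and Efna1 (42.1 ± 6.09), whose ranges overlapped, and then Epha1 (24.0 ± 3.70), below every value of these 3 genes. Ephb2 was last in all groups.

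DHT on top of R-spondin1 was followed by lower levels of 3 receptors among the 10 genes, Epha2, Epha4 and Ephb2. The comparison of RD7 with R asks what androgen changes when R-spondin1 is present. Epha2 encodes the main EphA receptor of many epithelia and lies on chromosome 4 (141301240 to 141329384). It stood at 10.5, 4.85 and 7.37 FPKM in RD7 1 to 3, against 17.3, 14.7 and 21.8 FPKM in R 1 to 3. Every RD7 library was below every R library, and RD7 2 was the lowest. The mean in RD7 was 42.3% of that in R (log2 fold change -1.23 ± 0.25, limma adjusted p = 0.0052).

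Ephb2, on chromosome 4 (136647539 to 136835988), encodes a receptor that binds B-type ephrins and had the lowest log2 fold change of the 10 genes between RD7 and R. Its level was 0.474, 0.299 and 0.423 FPKM in RD7 1 to 3, against 1.87, 1.72 and 2.90 FPKM in R 1 to 3. The RD7 libraries held 107, 72 and 90 reads of it and lay well apart from R. The mean in RD7 was 18.4% of that in R (log2 fold change -1.55 ± 0.29, limma adjusted p = 0.0029), and the log2 fold change was -2.43 with limma-voom, since 0.5 FPKM is close to its level in RD7. Epha4, on chromosome 1 (77367185 to 77515088), encodes the receptor that binds both ephrin types. It stood at 1.37, 1.14 and 2.15 FPKM in RD7 1 to 3, against 3.48, 2.94 and 3.20 FPKM in R 1 to 3. All RD7 values were below all R values, with a log2 fold change of -0.88 ± 0.19 (limma adjusted p = 0.0073).

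Both B-type ephrins were also called lower in RD7 than in R. Efnb1, on chromosome X (99136130 to 99148991), stood at 50.4, 42.1 and 40.2 FPKM in RD7 1 to 3, against 61.9, 64.1 and 64.9 FPKM in R 1 to 3. The R libraries were within a narrow range and above all RD7 libraries (log2 fold change -0.53 ± 0.14, limma adjusted p = 0.018). Without R 2, R 3, RD7 2 or RD7 3 the adjusted p was 0.0618, 0.0620, 0.0638 and 0.0647. Efnb2, on chromosome 8 (8617434 to 8661242), encodes the main ligand of EphB4. Its level was 10.6, 7.16 and 8.72 FPKM in RD7 1 to 3, against 11.5, 13.2 and 15.9 FPKM in R 1 to 3. The groups did not overlap, but RD7 1 and R 1 were close (log2 fold change -0.59 ± 0.19, limma adjusted p = 0.038). That call was lost in 9 of 19 other settings, with an adjusted p of 0.0924 without R 2, 0.143 without R 3, 0.138 without RD7 2, 0.0913 without RD7 3 and 0.0610 with TMM scaling.

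The other 5 genes were not called between RD7 and R. Ephb3, on chromosome 16 (21204755 to 21223305), stood at 14.9, 9.71 and 11.0 FPKM in RD7 1 to 3, against 15.1, 15.1 and 19.3 FPKM in R 1 to 3. The groups were next to each other without overlap (log2 fold change -0.47, 95% interval -0.92 to -0.03, limma adjusted p = 0.099, and 0.038 without RD7 1). Ephb4, on chromosome 5 (137350109 to 137378669), had 21.9, 12.3 and 12.4 FPKM in RD7 1 to 3, against 21.3, 18.7 and 26.8 FPKM in R 1 to 3. RD7 1 lay within the range of R, and without RD7 1 the limma adjusted p was 0.019 instead of 0.115. Ephb6, on chromosome 6 (41605482 to 41620509), encodes a receptor whose kinase domain is inactive. It had 56.1, 41.7 and 38.0 FPKM in RD7 1 to 3, against 32.2, 32.1 and 38.8 FPKM in R 1 to 3, with RD7 1 far above the others (log2 fold change 0.38, 95% interval -0.03 to 0.78, limma adjusted p = 0.144, and 0.0393 with the trend on gene length removed).

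Epha1 and the A-type ligand Efna1 had overlapping levels in RD7 and R. Epha1, on chromosome 6 (42358487 to 42373268), shares 6.01% of its exon bases with Zyx on the opposite strand. It averaged 24.0 ± 3.70 FPKM in RD7 and 23.5 ± 1.80 in R, with a log2 fold change of 0.02 and a 95% interval of -0.65 to 0.69. Efna1, on chromosome 3 (89271733 to 89281142), encodes a ligand of EphA receptors, EphA2 among them. It averaged 42.1 ± 6.09 FPKM in RD7 and 36.3 ± 5.41 in R (log2 fold change 0.21, 95% interval -0.16 to 0.58). In all, 5 of the 10 genes were called lower and 0 higher between RD7 and R by limma, where 17.7% of all genes tested were called lower and 13.4% higher. With limma-voom the count was also 5. In the main limma test 7 of the 10 genes, all lower in RD7, had an unadjusted p under 0.05. At that level 24.9% of all genes were lower and 18.0% higher. The median log2 fold change of the 10 was -0.54, beside -0.09 over all genes. Of all genes called, 43.0% were higher, which was 53.6% with TMM scaling, and with it 4 of the 10 genes were called lower. The groups did not overlap for 6 of the 10, all lower in RD7, where 51.8% of all genes did not overlap and 30.1% were lower without overlap.

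**Figure D2:**
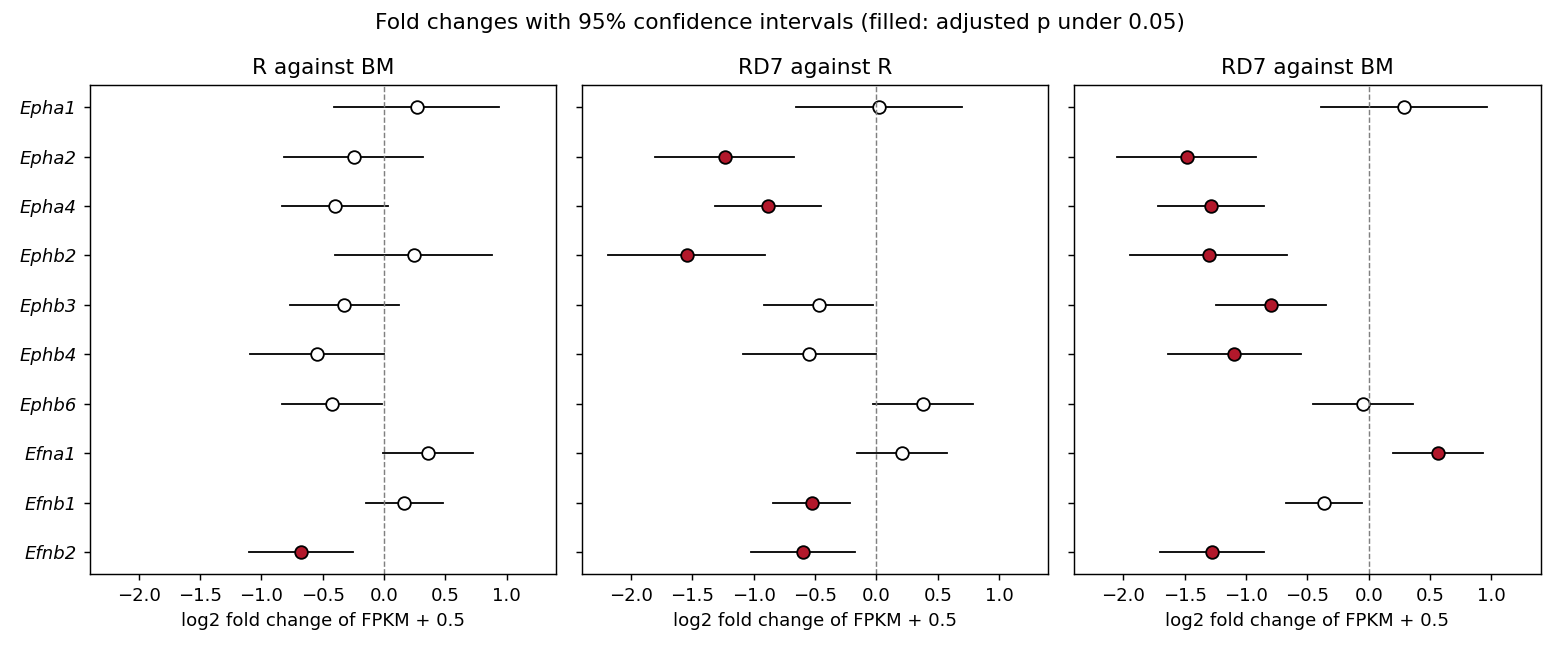
Log2 fold change of FPKM + 0.5 with its 95% confidence interval for the 10 genes with 1 panel for each pair of groups; filled points passed an adjusted p of 0.05. Filled points lie left of 0 except for Efna1 in RD7 against BM, at 0.56.

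With R-spondin1 alone, Efnb2 was the 1 gene of the 10 called. The comparison of R with BM asks what stronger Wnt signaling does. It stood at 11.5, 13.2 and 15.9 FPKM in R 1 to 3, against 24.9, 23.5 and 17.7 FPKM in BM 1 to 3. All R values lay below all BM values, and BM 3 was the nearest to R. The mean in R was 61.4% of that in BM (log2 fold change -0.68 ± 0.19, limma adjusted p = 0.0499). The call was lost in 10 of 19 other settings, with an adjusted p of 0.165 without BM 1, 0.138 without BM 2, 0.204 without R 1, 0.160 without R 2, 0.052 without R 3 and 0.078 without RD7 3. Of all genes, 5.64% were called lower and 4.39% higher. With limma-voom 1 of the 10 genes was called as well. In the main limma test 3 genes (Efnb2, Ephb4 and Ephb6, all lower in R) had an unadjusted p under 0.05. At that level 12.1% of all genes were lower and 13.8% higher.

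The Wnt targets of the intestinal crypt were not called between R and BM in these organoids. Ephb2 had 1.87, 1.72 and 2.90 FPKM in R 1 to 3, against 3.08, 1.11 and 1.38 FPKM in BM 1 to 3. BM 1 was higher than all R libraries and the other 2 BM libraries lower than all of them (log2 fold change 0.24, 95% interval -0.40 to 0.88, limma adjusted p = 0.615). The log2 fold change was 0.59 without BM 1, 0.011 without BM 2, 0.12 without BM 3 and 0.051 without R 3. BM 1 was also the library with the highest sum of neural, glial and neuroendocrine markers, at 2.35 FPKM, where BM 2 and BM 3 were at 0.200 and 0.364 RD7 between 0.00872 and 0.164 and R between 0.501 and 0.758. Their part in the level of Ephb2 was not tested. Ephb3 averaged 16.5 ± 2.40 FPKM in R and 20.9 ± 4.22 in BM, with overlapping groups (log2 fold change -0.33, 95% interval -0.77 to 0.12, limma adjusted p = 0.326). Axin2, in the same libraries, had a log2 fold change of 2.46 ± 0.19 (limma adjusted p = 1.8e-05).

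Among the other receptors, Epha4 was lower in every R library than in every BM library, at 3.87, 5.04 and 4.34 FPKM in BM 1 to 3, but did not pass the test. Of all genes, 30.3% did not overlap between R and BM and 14.4% were lower in R without overlap, as were Epha4 and Efnb2 (Epha4 log2 fold change -0.40 ± 0.19, limma adjusted p = 0.222). Ephb4 averaged 22.3 ± 4.13 FPKM in R and 33.0 ± 6.70 in BM, and Ephb6 34.4 ± 3.82 in R and 46.6 ± 8.34 in BM, with adjusted p of 0.191 and 0.179 from limma. Epha2 averaged 17.9 ± 3.56 FPKM in R and 21.3 ± 3.42 in BM. Epha1 could not be placed, since BM itself held 31.8, 11.0 and 20.8 FPKM in BM 1 to 3, and its log2 fold change was 0.27 (95% interval -0.41 to 0.94) and -0.13 without BM 2. Efna1 averaged 36.3 ± 5.41 FPKM in R and 28.2 ± 3.73 in BM (log2 fold change 0.35, 95% interval -0.01 to 0.72), and Efnb1 63.6 ± 1.53 in R and 57.1 ± 8.25 in BM. The median log2 fold change of the 10 genes was -0.29, beside 0.02 over all genes.

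With both factors, 5 of the 7 receptors among the 10 genes were called lower than in BM. Of all genes tested, 25.4% were called lower. The comparison of RD7 with BM shares its libraries with the other comparisons, which share the R libraries with each other, and is not a separate test of them. Epha2 had 10.5, 4.85 and 7.37 FPKM in RD7 1 to 3, against 23.9, 22.7 and 17.4 FPKM in BM 1 to 3, which is 35.6% of BM on average (log2 fold change -1.48 ± 0.25, limma adjusted p = 0.0016). Epha4 was at 35.2% of BM (-1.28 ± 0.19, limma adjusted p = 7.4e-04). Ephb4, with 38.6, 34.7 and 25.6 FPKM in BM 1 to 3, was at 47.1% of BM in RD7 (-1.09 ± 0.24, limma adjusted p = 0.0061), and Ephb3 at 56.7% (-0.80 ± 0.20, limma adjusted p = 0.010). Ephb2 was at 21.5% of BM (-1.30 ± 0.29, limma adjusted p = 0.0057), and its log2 fold change was -1.98 with limma-voom.

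The ligands parted in this comparison. Efnb2 averaged 8.82 ± 1.70 FPKM in RD7 and 22.0 ± 3.83 in BM (log2 fold change -1.28 ± 0.19, limma adjusted p = 6.8e-04). Efna1 had 35.7, 42.7 and 47.8 FPKM in RD7 1 to 3, against 27.3, 25.1 and 32.4 FPKM in BM 1 to 3. It was higher in all 3 RD7 libraries (0.56 ± 0.17, limma adjusted p = 0.019). That call was lost without BM 1, BM 2, RD7 2 or RD7 3, with an adjusted p of 0.053, 0.068, 0.060 and 0.071, and with the trend on gene length removed (adjusted p = 0.101, log2 fold change 0.28). Efnb1 was lower in every RD7 library than in every BM library but was not called (-0.36 ± 0.14, limma adjusted p = 0.055, and 0.043 without BM 3 and 0.029 without RD7 1). Epha1 and Ephb6 overlapped between RD7 and BM, and the log2 fold change of Ephb6 was -0.05 with a 95% interval of -0.46 to 0.36, and 0.05 with TMM scaling. In all, 6 of 10 genes were called lower and 1 higher, where 47.0% of all genes were called, 25.4% lower and 21.6% higher, and the median log2 fold change was -0.94, beside -0.07 over all genes. Of all genes called, 45.9% were higher, which was 53.7% with TMM scaling. The groups did not overlap for 8 of the 10, of which 7 were lower in RD7, where 52.4% of all genes did not overlap and 29.3% were lower without overlap.

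The 12 other genes of the family are given for the rest of the ligand and receptor classes. Of these, 5 passed the filter on low values: Efna2, Efna3, Efna4 and Efna5, which encode A-type ephrins, and the receptor gene Epha7. The other 7 were near or at 0. Epha6 was listed at 0 in all 9 libraries. Epha3, Epha5, Epha8, Epha10, Ephb1 and Efnb3 were at 0.167 FPKM or less in each library, with at most 15 reads.

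Efna3 was higher with each added factor. It stood at 8.47, 11.7 and 8.34 FPKM in RD7 1 to 3, at 5.92, 6.80 and 5.31 FPKM in R 1 to 3 and at 2.46, 2.59 and 3.33 FPKM in BM 1 to 3. No group overlapped another, and Efna3 rose in R against BM (log2 fold change 0.99 ± 0.18, limma adjusted p = 0.0056) and in RD7 against R (0.61 ± 0.18, limma adjusted p = 0.027). The call in RD7 against R was lost without R 1, R 3 or RD7 2, with an adjusted p of 0.075, 0.102 and 0.098, and with no filter on low values (0.0506). Efna4 averaged 23.4 ± 4.43 FPKM in RD7, 16.0 ± 2.17 in R and 12.2 ± 3.24 in BM, and was called in RD7 against BM (0.93 ± 0.21, limma adjusted p = 0.0061). Efna1, Efna3 and Efna4 lie in a row on the minus strand of chromosome 3, with 32756 bases between Efna1 and Efna3, 10424 between Efna3 and Efna4 and no other protein-coding gene lying between them in GENCODE M21. Efna3 shares 14.1% of its exon bases with Gm15998 and Efna4 10.5% with 4731419I09Rik on the opposite strand, so their reads could not be assigned with certainty in libraries that do not mark strand.

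Efna2 and Epha7 had their highest values in R. Efna2 stood at 2.31, 1.84 and 2.64 FPKM in RD7 1 to 3, at 5.00, 5.95 and 5.03 FPKM in R 1 to 3 and at 2.96, 3.15 and 3.54 FPKM in BM 1 to 3. The R libraries were above all others. Its log2 fold change was -1.08 ± 0.16 in RD7 against R (limma adjusted p = 6.2e-04) and 0.65 ± 0.16 in R against BM (limma adjusted p = 0.028). In RD7 against BM it was -0.43 ± 0.16 (limma adjusted p = 0.0456), a call lost in 14 of 19 other settings. The call in R against BM was lost without BM 1, BM 2, R 1, R 2 or R 3, with an adjusted p of 0.093, 0.070, 0.081, 0.134 and 0.065, with the replicate block (0.0723) and with the trend on gene length removed (0.0844). Epha7 averaged 0.184 ± 0.0493 FPKM in RD7, 0.865 ± 0.169 in R and 0.641 ± 0.0276 in BM, with 24 to 37 reads in each RD7 library, and fell in RD7 against R (-0.99 ± 0.13, limma adjusted p = 2.3e-04, and a log2 fold change of -2.26 with limma-voom) and in RD7 against BM (-0.74 ± 0.13, limma adjusted p = 0.0015). Epha7 was not called in R against BM (0.25 ± 0.13, limma adjusted p = 0.240). Efna5 (4.15 ± 0.898 FPKM in RD7, 6.11 ± 1.62 in R and 7.09 ± 2.76 in BM) was not called in any comparison.

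**Figure D3:**
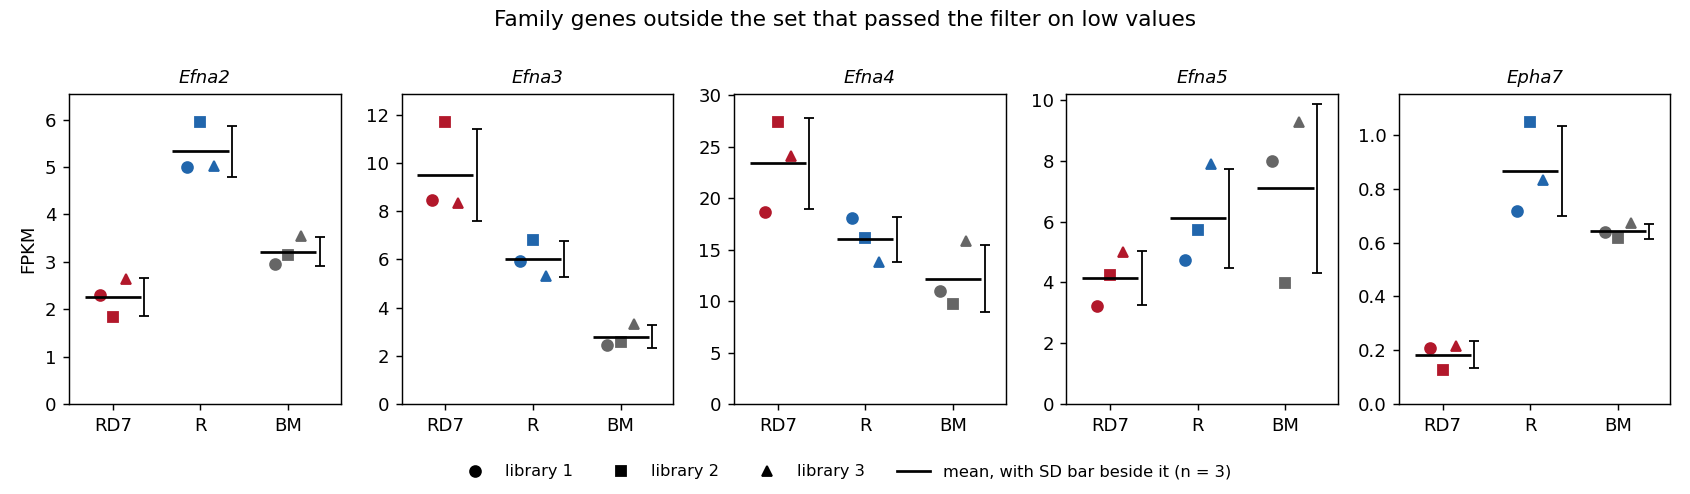
FPKM of the 5 family genes outside the 10 that passed the filter on low values, in RD7, R and BM (points are libraries, lines are means, bars are SD, n = 3). Efna3 separates the 3 groups, and Efna2 is highest in R and lowest in RD7.

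Summed over whole classes, levels are a description and were not tested. The 5 A-type ephrins together had 68.3, 87.9 and 87.9 FPKM in RD7 1 to 3, 71.3, 75.6 and 62.4 in R 1 to 3 and 51.7, 44.5 and 64.4 in BM 1 to 3. The 9 EphA receptors had 40.4, 28.8 and 31.1 FPKM in RD7 1 to 3, 44.0, 44.4 and 48.3 in R 1 to 3 and 60.2, 39.4 and 43.3 in BM 1 to 3. Summed A-type ephrin FPKM over summed EphA FPKM was therefore 1.69, 3.06 and 2.83 in RD7, 1.62, 1.70 and 1.29 in R and 0.858, 1.13 and 1.49 in BM. RD7 2 and RD7 3 were above every other library and RD7 1 was within the range of R. Efna1 and Efna4, with exons of 1830 and 1599 bases, are shorter than every EphA receptor tested. Fold changes moved with gene length, as given below, and the part of length in these ratios was not tested.

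The B class showed a different picture. The 3 B-type ephrins had 61.0, 49.3 and 49.0 FPKM in RD7 1 to 3, 73.5, 77.3 and 80.9 in R 1 to 3 and 91.6, 75.2 and 70.8 in BM 1 to 3, so RD7 was below all other libraries. The 5 EphB receptors had 93.3, 64.0 and 61.8 FPKM in RD7 1 to 3, 70.5, 67.8 and 87.8 in R 1 to 3 and 122, 104 and 81.8 in BM 1 to 3. Summed B-type ephrin FPKM over summed EphB FPKM was 0.654, 0.770 and 0.794 in RD7, 1.04, 1.14 and 0.921 in R and 0.753, 0.724 and 0.866 in BM. Every RD7 library was below every R library in this ratio, and RD7 overlapped BM. Ephb6 made up 62.0% of the EphB sum in RD7, 45.6% in R and 45.5% in BM. Epha1 made up 71.9% of the EphA sum in RD7, 51.7% in R and 44.6% in BM, while Epha2 made up 22.7%, 39.4% and 44.8% in the same order.

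**Figure D4:**
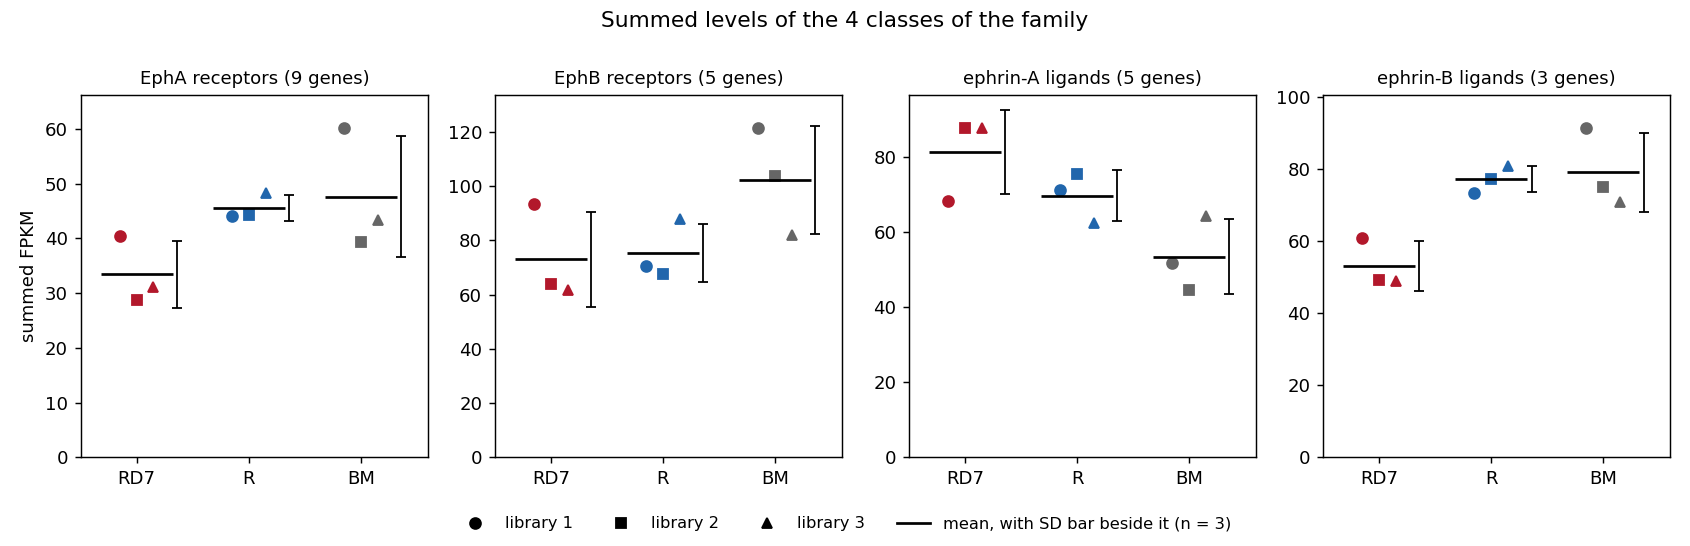
Summed FPKM of the 9 EphA receptors, 5 EphB receptors, 5 A-type ephrins and 3 B-type ephrins in RD7, R and BM (points are libraries, lines are means, bars are SD, n = 3). The B-type ephrin sum in RD7, 49.0 to 61.0 FPKM, lies below all R and BM libraries.

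Efnb2 and Ephb4 are also known as markers of arterial and venous endothelium. All 8 endothelial markers (Pecam1, Cdh5, Kdr, Tek, Tie1, Emcn, Cldn5 and Vwf) were under 1 FPKM in every library, and their sum was 0.196 to 0.446 FPKM in RD7, 0.309 to 0.586 in R and 0.193 to 0.225 in BM. Mesenchymal markers summed to 65.1 to 93.2 FPKM in RD7, 23.0 to 29.2 in R and 14.8 to 23.1 in BM. Its higher level in RD7 was that of Dcn, at 76.6 FPKM in RD7, 21.9 in R and 4.79 in BM, whereas Acta2 went the other way, at 1.29, 3.69 and 12.4 FPKM in the same order. The other 7 of 9, among them Col1a1, Col1a2, Col3a1, Pdgfra and Pdgfrb, were under 1 FPKM in every library. Leukocyte markers summed to 5.05 to 6.19 FPKM in RD7, 5.47 to 6.65 in R and 4.32 to 4.44 in BM, with Ptprc at no more than 0.00646 FPKM in every library. Most of the sum was Csf1r and Cd68, which went different ways. Csf1r averaged 2.29 FPKM in RD7, 2.84 in R and 3.18 in BM, and Cd68 2.39, 2.64 and 1.21 in the same order. Lyz2 averaged 0.848, 0.648 and 0 FPKM. The part of the mesenchymal and leukocyte shifts in the levels of the family was not tested.

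Gene length moved with the fold changes. Across all 15867 genes, which are not independent replicates, the Spearman correlation of log2 fold change with exon length was -0.22 for RD7 over R, -0.38 for RD7 over BM and -0.33 for R over BM. Over the 15 family genes tested it was -0.66, -0.83 and -0.56 in the same order, as a description. Lengths overlapped between receptors and ephrins only through Efnb2 and Efna5. Exon length was 12608 bases for Ephb2, 8054 for Epha4, 4674 for Epha2, 3928 for Epha1, 3773 for Ephb6 and 6855 for Efnb2. It was 4032 for Efna5, 2434 for Efna3, 1830 for Efna1 and 1599 for Efna4. Every tested ephrin other than Efnb2 and Efna5 was shorter than every tested receptor. With the trend on length removed from each library, Epha2, Epha4 and Ephb2 stayed called in RD7 against R, with log2 fold changes of -1.05, -0.68 and -1.36. Efna3 also stayed called in R against BM, while Efna2 in R against BM and Efnb2 in RD7 against R did not, nor did Efna1 and Epha7 in RD7 against BM.

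**Figure D5:**
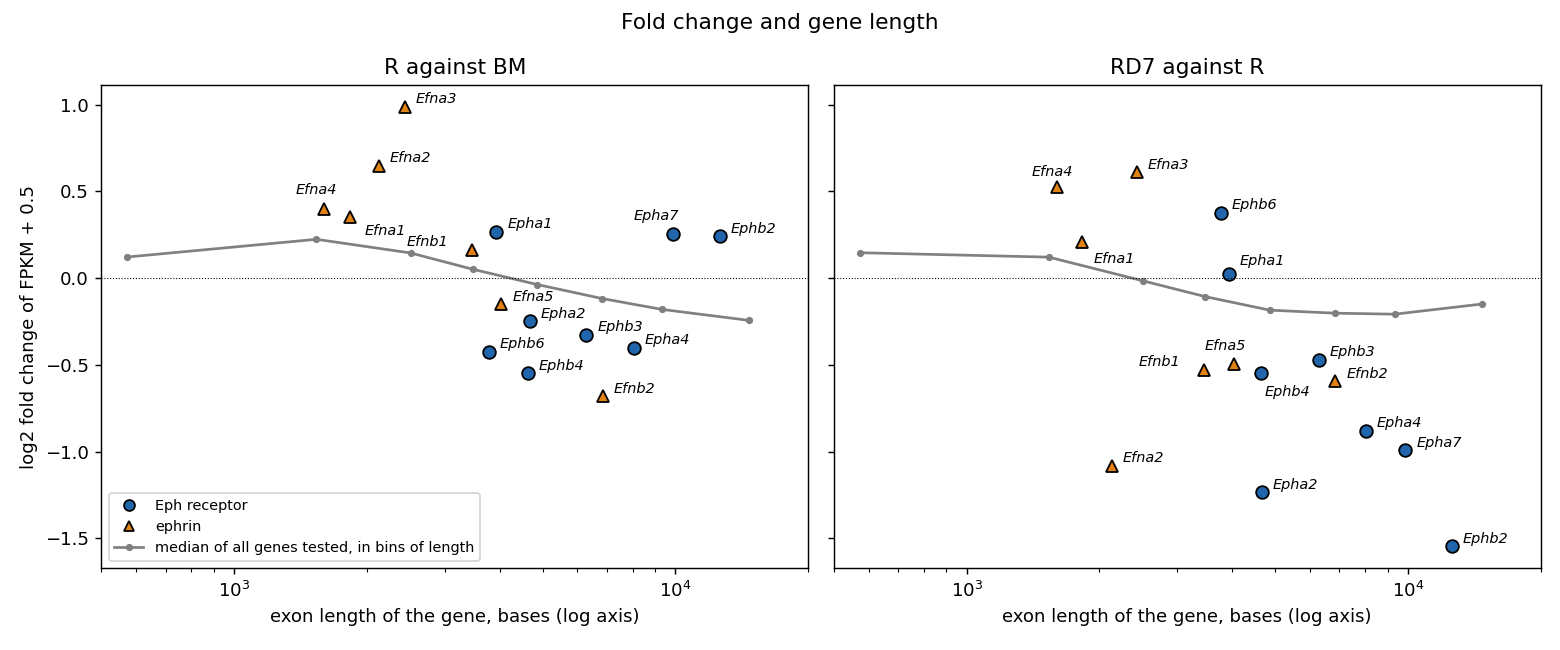
Log2 fold change of FPKM + 0.5 against exon length (log axis) for the 15 family genes tested, in R against BM and RD7 against R; circles are Eph receptors, triangles are ephrins and the grey line joins the medians of all genes tested in bins of length. In RD7 against R, Ephb2, Epha2, Epha4, Epha7 and Efna2 lie far below the grey line. Efna1, Efna3, Efna4, Epha1 and Ephb6 lie above it.

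The genes whose pattern over the 9 libraries was most like that of a member were found by Pearson correlation of log2(FPKM + 0.5), as a description. The libraries fall into 3 groups and differ in depth, so such values are high for many genes. For Epha2 they were Pard3 (r = 0.993), Smg6 (0.993) and Rbbp5 (0.990), for Epha4 Nap1l3 (0.987), Wwtr1 (0.976) and Il7 (0.976), and for Ephb2 Gabrp (0.993), Has3 (0.988) and Ctnnd2 (0.985). For Ephb3 they were Usp43 (0.997), Cenpo (0.995) and Plekha7 (0.994), and for Ephb4 Eml4, Capn5 and Cpsf1 (each 0.993). For Efna1 they were Snap47 (0.996) and Mblac1 (0.986), for Efnb1 Ddx31 (0.983), Zdhhc7 (0.980) and Slc15a3 (0.977), and for Efnb2 Gm12592 (0.993), A730081D07Rik (0.990) and Dzip1l (0.989). Gabrp, the gene nearest to Ephb2, averaged 36.8 FPKM in RD7, 139.5 in R and 133 in BM.

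Genes known to carry the signal of Eph receptors and ephrins were taken from a list of 44, all of which were tested. In R against BM, 2 were called higher (Vav3 and Rhbdl2), 1 lower (Ptprj) and 41 were not called, where 4.39% of all genes were called higher and 5.64% lower, with a median log2 fold change of -0.13 beside 0.02 over all genes. Vav3, a guanine nucleotide exchange factor, averaged 42.4 ± 3.48 FPKM in R and 19.4 ± 1.55 in BM (1.11 ± 0.13, limma adjusted p = 3.0e-04). Ptprj, a receptor-type tyrosine phosphatase, averaged 1.12 ± 0.527 FPKM in R and 2.66 ± 0.394 in BM (-1.01 ± 0.22, limma adjusted p = 0.017, and 0.0555, 0.0607, 0.0643 and 0.0617 without BM 1, BM 2, R 1 or R 2).

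In RD7 against R, 1 of the 44 was called higher, 10 lower and 33 were not called, where 13.4% of all genes were called higher and 17.7% lower, with a median of -0.20 beside -0.09. Vav3 had the lowest fold change on the log2(FPKM + 0.5) scale, with 11.8, 10.1 and 10.2 FPKM in RD7 1 to 3, against 38.4, 44.4 and 44.4 FPKM in R 1 to 3 (log2 fold change -1.93 ± 0.13, limma adjusted p = 2.1e-06). Its mean in RD7 was 25.3% of that in R, and the low genes Kalrn and Grb10 were at 19.4% and 22.2%. The gene that rose was Rgs3, a regulator of G-protein signaling that binds B-type ephrins, with 3.93 ± 0.409 FPKM in RD7 and 2.36 ± 0.0345 in R (0.63 ± 0.14, limma adjusted p = 0.0078). Those that fell also included the Src-family kinase gene Fyn, the exchange factor genes Tiam1, Kalrn and Ngef, the adaptor genes Grb10, Grip1 and Rasa1, and the kinase genes Rock2 and Ptk2. In RD7 against BM, 5 were called higher and 17 lower, where 21.6% of all genes were called higher and 25.4% lower, with a median of -0.42 beside -0.07. The highest of these log2 fold changes was that of Rhbdl2, a membrane protease gene (0.97 ± 0.16, limma adjusted p = 0.0014), and the lowest that of Ptk2, which encodes focal adhesion kinase (-1.20 ± 0.21, limma adjusted p = 0.0017).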

How the data were processed

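PolyA RNA from 9 organoid libraries (Takara SmartSeq cDNA, NEBNext Ultra II libraries, neither of which marks strand) had been sequenced. The deposited files give FPKM per Ensembl gene and library, made by the authors. Per the submitters' processing notes, CASAVA 1.9, STAR 2.6.1a, featureCounts, edgeR 3.24.1 and GRCm38 were used. The notes used here give no order or role for these. Of 49585 genes, 99.5% matched a GENCODE M21 symbol. Reads were read back from FPKM through gene length, with a tolerance of 0.01 read for a whole number. This worked with the annotated length for 22971 of 26813 genes above 0 and with a fitted length for 3842 (Ephb3 among them), and gave library totals of 6505859 to 24141017 reads.

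Genes reaching 0.5 CPM in 3 or more libraries were tested with limma 3.58.1 in R 4.3.3 on log2(FPKM + 0.5), with a trended, robust, two-sided test, 1 mean per group, 6 residual degrees of freedom before moderation and Benjamini-Hochberg adjustment over 15867 genes. A fold change on this scale understates the change of low genes. The fit was also tested on simulated data. Tables and plots were made with Python 3.11.15, pandas 2.3.3, numpy 2.4.6 and matplotlib 3.10.9.

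The 10 members, the marker lists and the list of 44 pathway genes were chosen with earlier results of these data known. All members and other family genes are named, as are the called pathway gene with the highest and the one with the lowest log2 fold change in each comparison, and up to 3 genes most like each member called in any comparison (1 of those for Efna1 is not reported here). Pathway genes beyond these were named after their values were seen. Alternatives were other pseudocounts, filters, scalings and a length correction, limma-voom, only the 6 libraries compared, a replicate block and leaving out each library.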

Additional observations from a re-analysis of the deposited data

How the results depend on the processing

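Of 30 results (10 members in 3 comparisons), 18 kept their direction and their status, called or not called, in all 19 other settings run. Among the 18 were the lower Epha2, Epha4 and Ephb2 in RD7 against R and in RD7 against BM. The 18 also include results not called in any setting, such as those of Epha2, Epha4 and Ephb2 in R against BM. In R against BM, 0 of 10 members were called by limma with a pseudocount of 0.1, with no filter, with only the 6 libraries compared and with the replicate block, against 1 in the main result, and 0 to 1 when 1 library was left out. In RD7 against R the count was 3 to 7 with 1 library left out (3 without R 2, R 3, RD7 2 or RD7 3), against 5. In RD7 against BM it was 6 to 8, against 7. Over all genes, calls ranged from 930 without R 1 to 3402 without BM 3 in R against BM (1591 in the main result), from 3186 without R 3 to 6073 with only the 6 libraries compared in RD7 against R (4937), and from 4836 without RD7 2 to 8519 without BM 3 in RD7 against BM (7455).

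Differences near 0 changed sign. With TMM scaling, median-of-ratios scaling and the length trend removed, the log2 fold change of Ephb6 in RD7 against BM was 0.049, 0.025 and 0.056, and that of Axin2 in RD7 against R was 0.018, 0.011 and 0.11. With 1 library left out, Epha1 ranged from -0.13 to 0.61 in R against BM, from -0.10 to 0.10 in RD7 against R and from -0.11 to 0.63 in RD7 against BM. Ephb6 in RD7 against BM ranged from -0.21 to 0.079, Efna5 in R against BM from -0.49 to 0.070 and Axin2 in RD7 against R from -0.22 to 0.11. The size of the Ephb2 difference in RD7 against R was -2.16 with a pseudocount of 0.1 and -1.16 with 1. Epha7 in RD7 against BM was not called with the length trend removed (adjusted p = 0.075). The causes were not tested.

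Deviations from group means correlated between -0.52 and 0.27 for same-numbered libraries of different groups. For libraries with different numbers they correlated between -0.58 and 0.58. With 3 libraries in each group, this check cannot decide whether the replicate numbers pair the libraries. With the number as a replicate block, 0, 4 and 7 members were called in R over BM, RD7 over R and RD7 over BM, and 1161, 3884 and 6298 genes in all. The planned edgeR and DESeq2 alternatives were not run, and limma-voom was the alternative run on the reads read back. Depth limits the low genes, such as Ephb2 and Epha7 with 72 to 107 and 24 to 37 reads in each RD7 library, and Efna2 and Efna3 with 41 and 39 reads in BM 1.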
